A study of Aedes albopictus with 4 samples.

Results

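LOC115257481 is a gene of the Asian tiger mosquito, Aedes albopictus, that the deposited table names NPC intracellular cholesterol transporter 2 homolog a-like. It is described here beside the other genes whose product name holds NPC intracellular cholesterol transporter or ecdysteroid-regulated 16 kDa. That rule found 12 of the 25320 genes of the table: LOC115257481, 8 other NPC2-type genes and 3 NPC1-type genes. LOC115257481 was selected on its normalized counts in diquat-exposed and control larvae, so its values are given as a description with no test. The other 11 genes were found by name alone. RNA was sequenced from whole larvae in the fourth instar at 72 h, in 2 libraries from larvae exposed to diquat, a bipyridyl herbicide, at 1/5 of the LC50 (the concentration that kills 50% of animals), and 2 libraries from control larvae labelled as having no treatment. The sources used here do not give the strain, the number of larvae per library or what the controls were kept in. The design text speaks of a sample per group and its duplicate, so the spread between libraries may be technical. In that case each SE and p-value given here rests on differences between libraries and not on variation between larvae. Here n counts libraries.

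Insects cannot make sterols and take them from food. NPC2 proteins are small secreted carriers that hold a sterol in a hydrophobic pocket, and in mammals NPC2 hands cholesterol to NPC1, a large membrane protein of late endosomes and lysosomes. Flies and mosquitoes have families of NPC2 genes in place of a single copy, and some of the fly proteins also bind components of bacterial cell walls. In Drosophila, Npc1b acts in the midgut in the uptake of dietary sterol, while Npc1a acts in sterol traffic inside cells, including those that make ecdysteroids, the moulting hormones derived from sterols. The ecdysteroid-regulated 16 kDa protein was named in the moth Manduca sexta and belongs to the same lipid-binding family as NPC2.

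LOC115257481 had 85013 and 83418 normalized counts in the diquat libraries, against 33974 and 33855 in the control libraries. Normalized counts are reads per gene divided by a factor for each library, and they are not corrected for transcript length. The values behind them were 92779 and 97738 reads with diquat and 28405 and 32448 reads in controls, so that counting error was at most 0.593% of any value. The means were 84215 ± 1128 with diquat and 33915 ± 84.1 in controls (SD, n = 2 per group), a ratio of 2.48. Every diquat library stood above every control library, by 2.46 to 2.51 times depending on which libraries are set against each other. On the log2(value + 1) scale the fold change was 1.31 ± 0.01 (standard error, SE, of limma, a linear model fitted over all genes, n = 2 per group), and quantile normalization lowered it to 1.13.

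The change stood out by the level at which it occurred. Ordered by normalized count, with no correction for length, LOC115257481 was number 76 of all genes in both diquat libraries and number 194 in both control libraries. Of the 192 other tested genes that had at least its lower control value in both control libraries, 0 had a higher log2 fold change. Among all 17992 tested genes 218 had a higher one. Its gain of 50300 normalized counts was exceeded by 6 tested genes. Of these, elongation factor 2 (LOC109429586) lies inside the long noncoding RNA gene LOC134287444, also among the 6. A nested gene held 74.5% of the value of LOC134287444, so reads may be shared. The same limit applies to another of the 6, an uncharacterized protein gene in which a nested gene held 54.3% of the value. These places describe a gene chosen for its change and support nothing further. No other annotated gene overlaps it in the AalbF5 assembly.

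**Figure D1:**
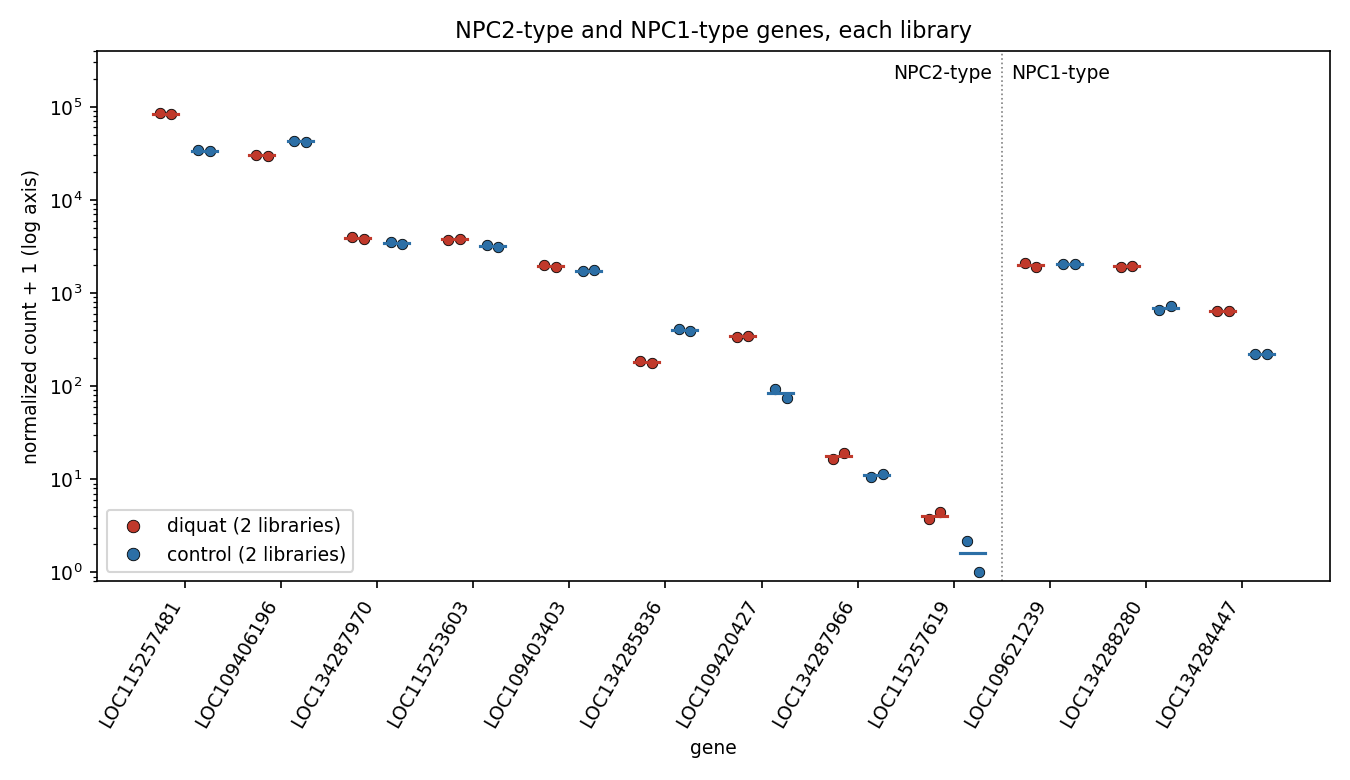
Normalized count plus 1 (log axis) of the 12 genes in each of the 4 libraries, with diquat left of control for each gene; points are libraries and short lines are group means. LOC115257481 stands at 84215 with diquat and 33915 in controls, whereas the next gene, LOC109406196, stands at 30098 with diquat and 42729 in controls.

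The other abundant NPC2-type gene, LOC109406196 (NPC intracellular cholesterol transporter 2-like), moved the other way. It had 30427 and 29769 normalized counts with diquat, against 43245 and 42213 in controls. Both diquat libraries lay below both controls, and the gene fell by 0.51 on the log2 scale (SE 0.02, n = 2 per group, limma adjusted p = 4.9e-19). Dividing LOC115257481 by LOC109406196 within each library removes any scaling error between libraries. That ratio was 2.79 and 2.80 in the diquat libraries and 0.786 and 0.802 in the control libraries. The more abundant of this pair by counts was thus LOC115257481 with diquat and LOC109406196 in controls.

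These 2 genes held most of the counts of the family. LOC115257481 took 67.6% ± 0.06 of the normalized counts of the 9 NPC2-type genes with diquat and 39.7% ± 0.38 in controls (SD, n = 2 per group). LOC109406196 took 24.2% ± 0.03 with diquat and 49.95% ± 0.25 in controls (SD, n = 2 per group). The summed counts of the 9 genes were 125754 and 123233 with diquat, against 86272 and 84801 in controls. Without LOC115257481 the sum of the other 8 was 40741 and 39816 with diquat, against 52298 and 50946 in controls. In group means this sum was lower by 11343 with diquat. LOC109406196 alone was lower by 12630, more than the fall of the sum, and copies that rose offset part of it. LOC134285836 was lower as well, at 182.2 with diquat against 401.7 in controls. The family total was higher and the total of the other copies lower in every diquat library than in every control library. The family total includes LOC115257481, which was chosen for its change, so its rise is a description and no result about the family. Each share has the family total as its denominator, so a share can fall with no fall in counts. Thus LOC134287970 rose in counts, yet its mean share was 3.15% with diquat and 4.03% in controls. For LOC109406196 the mean counts were 0.704 times the control level and the mean share 0.484 times.

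**Figure D2:**
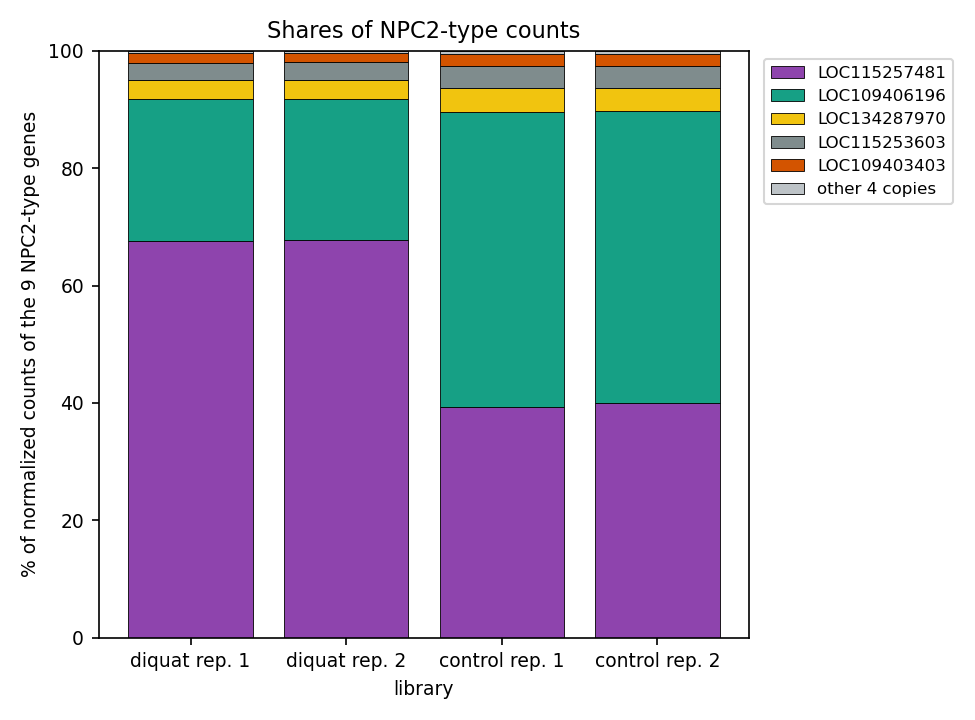
Share (%) of the normalized counts of the 9 NPC2-type genes held by each gene, stacked from 0 to 100 for each library. LOC115257481 holds 67.6% on average in the 2 diquat bars and 39.7% in the 2 control bars. LOC109406196 holds 24.2% in the diquat bars and 49.95% in the control bars. The shares of the other copies depend on LOC115257481, which was chosen for its change.

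Of the 8 other NPC2-type genes, 7 reached a mean of 10 normalized counts and were tested. At a limma adjusted p of 0.05, 4 rose and 2 fell. Among all 17992 tested genes 48.8% passed that threshold, 26.7% higher with diquat and 22.0% lower. The median log2 fold change of the 7 was 0.19, against 0.00 over all tested genes. Their fold changes ran from -1.14 to 2.04 on the log2 scale.

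LOC109420427, named homolog a like the Drosophila gene that is expressed in most tissues, rose most among these 7. It had 337.2 and 346.5 normalized counts with diquat, against 93.3 and 73.04 in controls, with a log2 fold change of 2.04 ± 0.17 (SE, n = 2 each, limma adjusted p = 1.6e-10). The controls rest on 78 and 70 reads, and the fold change was 1.86 without control replicate 2 and 2.21 without control replicate 1. The groups did not overlap. LOC134285836 (NPC intracellular cholesterol transporter 2) had 186.9 and 177.5 normalized counts with diquat, against 409.1 and 394.4 in controls. It fell by 1.14 on the log2 scale (SE 0.13, n = 2 per group, limma adjusted p = 4.4e-08), again with no overlap between the groups.

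The other 3 called copies rose by small amounts. The ecdysteroid-regulated 16 kDa protein gene (LOC115253603) had 3757 and 3759 normalized counts with diquat, against 3270 and 3137 in controls. Its log2 fold change was 0.23 ± 0.04 (SE, n = 2 per group, limma adjusted p = 2.5e-05). LOC134287970 had 4017 and 3829 normalized counts with diquat, against 3532 and 3368 in controls, with a log2 fold change of 0.19 ± 0.04 (SE, n = 2 each, limma adjusted p = 0.00042). In LOC109403403, the other gene named homolog a, the values were 1998 and 1914 with diquat, against 1738 and 1750 in controls. Its log2 fold change of 0.16 ± 0.05 (SE, n = 2 each, limma adjusted p = 0.011) lost its call without diquat replicate 1 (adjusted p = 0.13) and in DESeq2 (adjusted p = 0.058). In these 3 genes every diquat library lay above every control library. Over all tested genes, 73.0% had both diquat libraries on a single side of both controls.

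The remaining copies had few reads. LOC134287966 had 17 and 21 reads with diquat, against 8 and 10 in controls. Its log2 fold change was 0.69 ± 0.55 (SE, n = 2 per group, limma adjusted p = 0.32), and a difference of this size was not detectable at this depth. LOC115257619 had 3 and 4 reads with diquat, against 1 and 0 in controls, and was not tested.

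**Figure D3:**
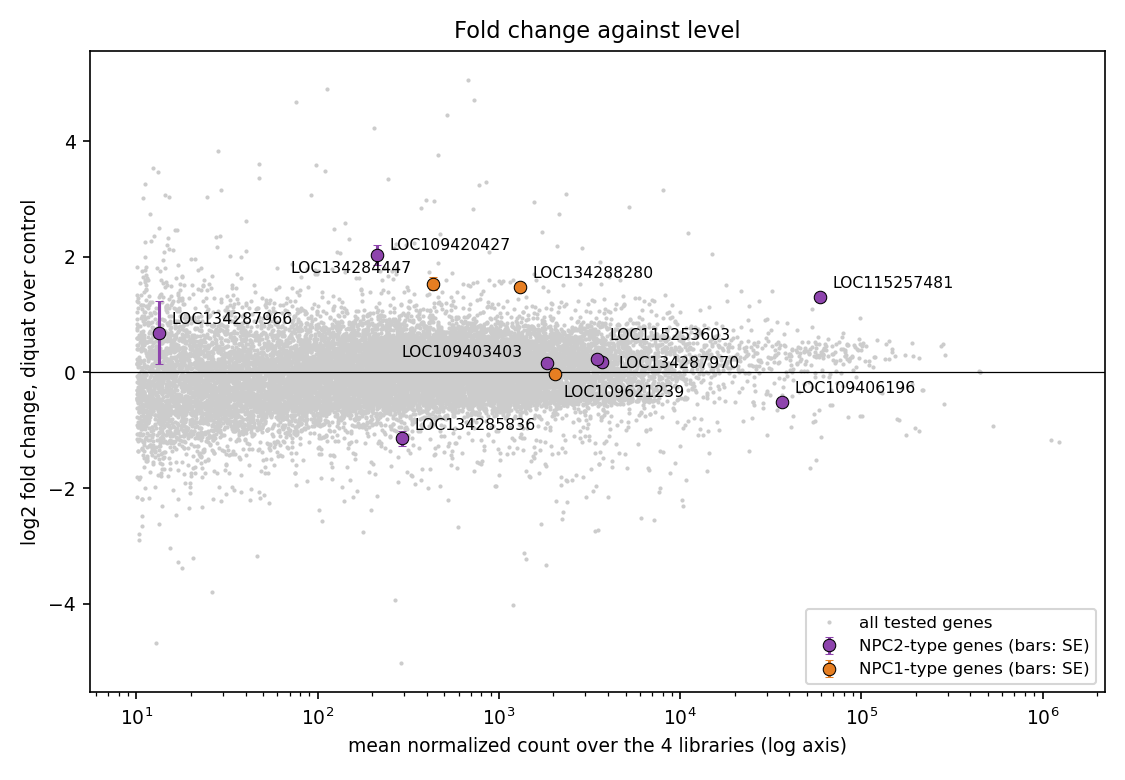
Log2 fold change of diquat over control against the mean normalized count over the 4 libraries (log axis) for the 17992 tested genes (grey), with the NPC2-type (purple) and NPC1-type (orange) genes named and SE bars drawn on them. LOC115257481 lies at 1.31 in the sparse right part of the plot, and LOC109420427 at 2.04 is the highest of the family.

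The 3 NPC1-type genes split by name. The 2 genes named homolog 1b-like rose, and the gene named NPC intracellular cholesterol transporter 1 did not pass the test. Over all tested genes 48.8% were called, 26.7% of them all as higher with diquat. LOC134288280 (homolog 1b-like) had 1907 and 1955 normalized counts with diquat, against 654.2 and 727.2 in controls, with a log2 fold change of 1.48 ± 0.07 (SE, n = 2 each, limma adjusted p = 4.1e-16). LOC134284447, also homolog 1b-like, had 640.5 and 641.8 with diquat, against 221.3 and 220.2 in controls, with a log2 fold change of 1.53 ± 0.11 (SE, n = 2 each, limma adjusted p = 5.9e-12). The diquat and control libraries did not overlap in either gene, which held for 73.0% of all tested genes. LOC109621239 (NPC intracellular cholesterol transporter 1) had 2106 and 1926 normalized counts with diquat, against 2069 and 2053 in controls, and its libraries overlapped (log2 fold change -0.03 ± 0.05, SE, n = 2 each, limma adjusted p = 0.63).

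The ratio of LOC134288280 to LOC109621239 within a library was 0.906 and 1.02 with diquat, against 0.316 and 0.354 in controls. For LOC134284447 the ratio to LOC109621239 was 0.304 and 0.333 with diquat, against 0.107 and 0.107 in controls. In an exact permutation test, two-sided, each ratio gave p = 0.333, the smallest that 2 libraries against 2 can give. The ratio between the 2 homolog 1b-like genes was 2.98 and 3.05 with diquat, against 2.96 and 3.30 in controls, so they moved in step. The sources used here do not say how the authors' counting divided reads between similar copies. Whether the 2 homolog 1b-like genes vary separately is therefore uncertain. Among the NPC2-type copies, LOC115257481 and LOC109406196 differed in opposite directions, as given above, while for the copies that rose together it is likewise uncertain.

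In the gene order of the AalbF5 assembly, 7 of the 9 NPC2-type genes formed 2 runs. In the run that holds LOC115257481, LOC109420427 stood on one side with 2 genes between, and LOC115257619 was the next gene on the other side. Apart from LOC115257481 itself, LOC109420427 was the only copy of that run with enough counts for a test, and it was higher with diquat. The run of LOC134285836, LOC134287966, LOC134287970 and LOC109406196, with 2, 1 and 4 genes between neighbours, held the 2 copies that fell as well as a copy that rose.

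The nearest other genes were far below LOC115257481 in counts, and the 2 of them that were tested did not pass. Of the 3 annotated genes on each side, 2 were the NPC2-type copies already given. The toll-like receptor Tollo gene (LOC109402341) had 548.9 and 540.3 normalized counts with diquat, against 454.5 and 514.4 in controls (log2 fold change 0.17 ± 0.10, SE, n = 2 each, limma adjusted p = 0.15). LOC134290743, an uncharacterized K02A2.6-like gene, had 31.2 and 39.3 with diquat, against 34.7 and 52.2 in controls (limma adjusted p = 0.54). LOC115257701 and LOC134290744 were below the minimum for a test. No source names the build that the authors used, so the assembly serves here for gene order and overlaps between genes, without coordinates.

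**Figure D4:**
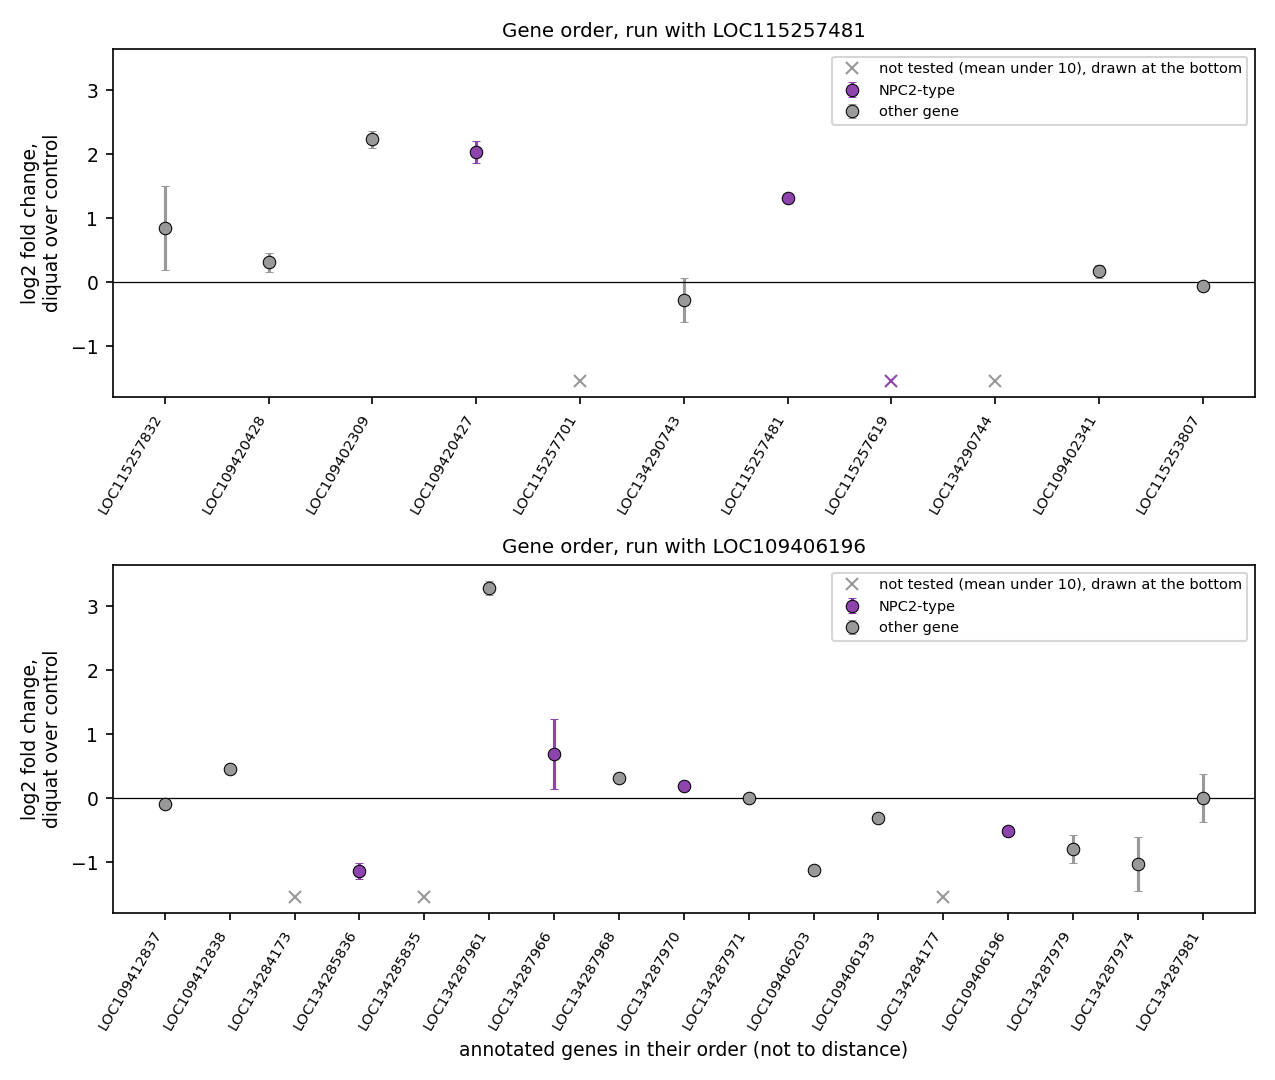
Log2 fold change of diquat over control with SE bars for the genes of the 2 runs of NPC2-type copies and 3 genes on each side, in annotated order and not to distance; purple marks NPC2-type genes and crosses mark genes that were not tested. In the upper run the tested copies lie at 2.04 and 1.31, and in the lower run they lie between -1.14 and 0.69.

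By likeness of pattern, the 5 genes closest to LOC115257481 were unrelated in name. The measure was the Euclidean distance over the 4 libraries between log2(value + 1) profiles, each relative to the gene's own control mean, among 14369 genes with a mean of at least 50. The closest was dihydropyrimidine dehydrogenase (LOC109402631), an enzyme of pyrimidine breakdown, at a distance of 0.05. It had 8349 and 8389 normalized counts with diquat, against 3445 and 3436 in controls. It was followed by alkyldihydroxyacetonephosphate synthase-like (LOC109416372), of ether lipid synthesis, and the uncharacterized LOC109421758. Melanization protease 1 (LOC109421870) and the alanyl-tRNA editing protein Aarsd1 (LOC109432121) came next, and all of these lay within 0.08. Of the family, LOC134288280 and LOC134284447 came nearest in pattern, at places 81 and 114, while LOC109420427 with its higher fold change was at place 1587.

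Other genes of sterol handling were found by product name in 6 roles. Of these 47 genes, all tested, 14 rose and 15 fell, shares of 29.8% and 31.9%, against 26.7% higher and 22.0% lower over all tested genes. The median log2 fold change was 0.00, as over all tested genes. The count of 14 was 9 without diquat replicate 1. Of all 17992 tested genes 1153 changed by a log2 fold change of 1 or more in size, and of the 47 genes 1 did. This was LOC109412658, a cytochrome P450 of the type called spook in Drosophila, an enzyme of an early step of ecdysteroid synthesis, which is named here after its values were seen. It had 69.6 and 62.3 normalized counts with diquat, against 27.5 and 21.9 in controls (log2 fold change 1.39 ± 0.33, SE, n = 2 each, limma adjusted p = 0.0011).

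The other lipid carriers did not pass the test. Sterol carrier protein 2 (LOC109429786), a carrier of sterols and fatty acids inside cells, had 18582 and 18392 normalized counts with diquat, against 18575 and 18525 in controls. The MD-2-related lipid-recognition protein gene (LOC109425930), of the same protein family as NPC2, had 912.6 and 849.2 with diquat, against 854.0 and 835.7 in controls. In both genes the groups overlapped.

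Among 11 oxysterol-binding and START proteins, which move lipids between membranes, 4 rose and 3 fell, against the 26.7% higher and 22.0% lower of all tested genes. Oxysterol-binding protein-related protein 8 (LOC109398576) rose by a log2 fold change of 0.64, and 2 genes named stAR-related lipid transfer protein 7 rose by 0.63 (LOC109413656) and 0.42 (LOC109424733). START domain-containing protein 10-like (LOC134287951) fell by 0.42 on the log2 scale.

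Genes of lipid uptake and export gave 5 higher and 5 lower of 16, against 26.7% higher and 22.0% lower of all tested genes. Apolipophorins (LOC109399794), the protein of the blood particle that carries lipids between insect tissues, had 166416 and 168208 normalized counts with diquat, against 126126 and 126803 in controls (log2 fold change 0.40 ± 0.01, SE, n = 2 each, limma adjusted p = 4e-22). Transporters of ATP-binding cassette sub-family G went both ways. A gene named member 1 (LOC109429974) rose by a log2 fold change of 0.61 and member 5 (LOC109408294) by 0.45, whereas 2 other genes named member 1 fell by 0.37 (LOC109429977) and 0.34 (LOC109433115) and member 8 (LOC109400513) by 0.21 on the log2 scale; the 3 that fell are named after their values were seen. For member 5, a gene nested inside it held 54.3% of its value. Scavenger receptor class B member 1 (LOC134288082), of a family of lipoprotein receptors, fell by 0.45 on the log2 scale. Another gene of that name was also lower, at -0.47. A further one did not pass (log2 fold change -0.13, limma adjusted p = 0.46). Both are given after their values were seen.

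Sterol regulatory element-binding protein 1 (LOC109427495), a transcription factor of lipid synthesis, rose by a log2 fold change of 0.39. Its escort, the cleavage-activating protein (LOC115267895), had a log2 fold change of 0.29 that lost its call without diquat replicate 1, without control replicate 1, in DESeq2 and under quantile normalization (adjusted p from 0.067 to 0.21). Of 8 genes of ecdysteroid synthesis 3 rose and 1 fell, so that the called share was close to the 48.8% of all tested genes. Apart from LOC109412658, the calls were cytochrome P450 genes of the Drosophila types disembodied (LOC109399201) at 0.40, shadow (LOC109406906) at 0.24 and spook (LOC109397829) at -0.27 on the log2 scale. Each of the 3 lost its call without at least 2 of the 4 libraries in turn and in DESeq2. Genes of the ecdysteroid response fell in 6 of 7, against 22.0% lower over all tested genes, with a median log2 fold change of -0.39. The lowest p-values were those of HR3 (LOC109417772) at -0.46, FTZ-F1 (LOC109404941) at -0.55 and the ecdysone receptor (LOC109414899) at -0.51. Ecdysone-inducible protein E75 (LOC109425803) followed at -0.39.

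**Figure D5:**
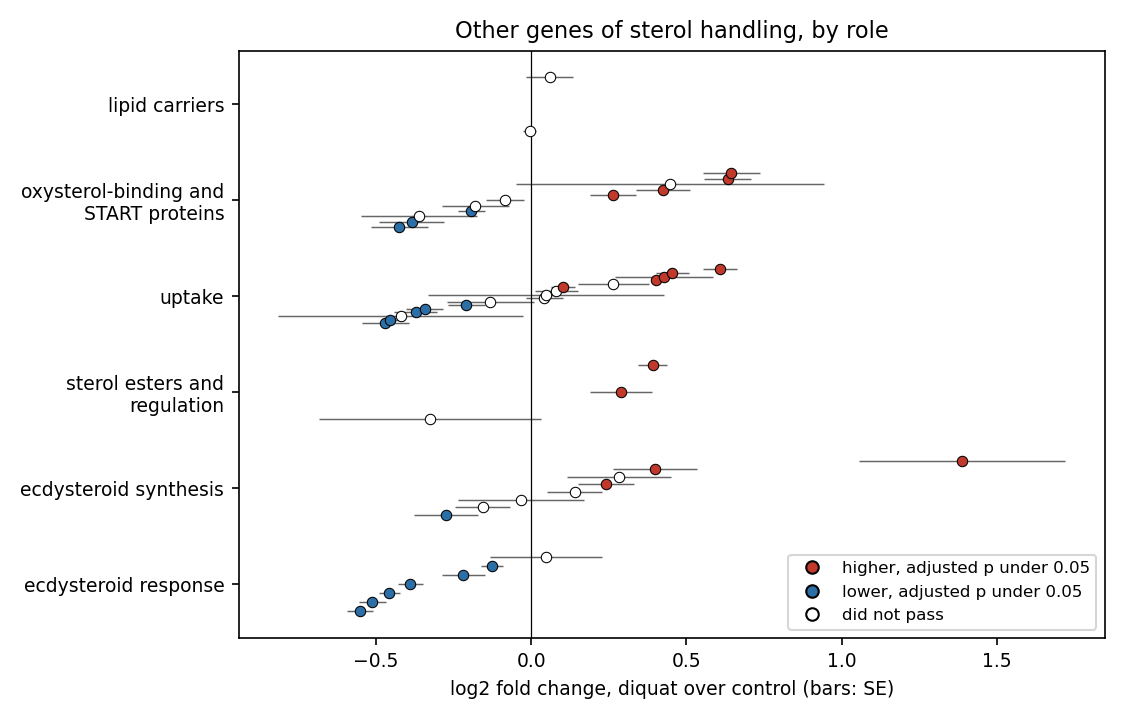
Log2 fold change of diquat over control with SE bars for 47 genes of sterol handling, 1 point a gene, by role; red marks genes higher and blue genes lower at an adjusted p under 0.05, and white genes that did not pass. Points lie on both sides of 0 in most roles, whereas 6 of the 7 genes of the ecdysteroid response are blue.

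Libraries held 45243090 and 48383964 reads with diquat and 34502559 and 39242657 in controls. The authors' scaling brought the totals close to each other. Marker lists of the tissues of a larva had reads in all 4 libraries for 9 of 9 fat body genes, 111 of 130 midgut genes, 22 of 22 Malpighian tubule genes and 30 of 34 larval cuticle genes. In whole larvae, fewer cells of a type and less RNA per cell cannot be told apart. The summed midgut markers ran from 467449 to 471262 normalized counts with diquat, against 484758 to 488376 in controls. Of 99 tested midgut genes 47 rose and 18 fell, against 26.7% higher and 22.0% lower over all tested genes. The summed fat body markers ran from 980713 to 984447 with diquat, against 1103708 to 1108587 in controls. The larval cuticle sum ran from 41402 to 41973 with diquat, against 77775 to 78220 in controls. The summed Malpighian tubule markers ran from 146854 to 147596 with diquat, against 118140 to 118858 in controls, and the muscle sum from 749104 to 752092 with diquat, against 576758 to 580026 in controls. The haemocyte sum was 0.723 and the neuron sum 0.808 times the control level. Calls higher and lower were 2 and 4 of 9 tested for fat body, and 3 and 4 of 10 for haemocyte. They were 9 and 6 of 20 for muscle and 14 and 3 of 22 for Malpighian tubule. For larval cuticle they were 1 and 22 of 30, and for neuron 0 and 10 of 12. Sums thus differed in both directions, with those of the Malpighian tubule and muscle lists higher with diquat and the other 5 lower. The lists were chosen by product name. The Malpighian tubule list held the genes named V-type proton ATPase subunit or aquaporin, and whether these are particular to the tubule was not tested. The part of tissue makeup in the results was not tested.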

How the data were processed

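RNA sequencing of whole larvae gave 4 libraries, 2 per group, grouped by the sample titles. Per the labels, the kits were Zymo Direct-Zol for RNA and NEBNext Ultra II for libraries. Per the submitters' processing notes, fastp 0.12.4, DRAGEN, bcl2fastq and STAR 2.7.10a were used in the study. The sources used here do not give the counter, build, strand setting or normalizing tool. The authors deposited a normalized count signal per gene and library. Median-ratio scaling, that of DESeq2, gave these values the same factor in all 4 libraries (1.006), as when such scaling has already been applied. In each library 100% of values divided evenly by the smallest value above 0 (tolerance 1e-06), so reads could be recovered. In 1751 of 1751 nested gene pairs with an inner mean of at least 100, the outer value was never below the inner in any library, as when reads are given to every overlapping gene. All 25320 gene identifiers matched the AalbF5 gene table.

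Log2(value + 1) of the 17992 genes with a mean of 10 or more entered limma 3.58.1 in R 4.3.3 (mean trend). Tests were two-sided, with p-values adjusted over all these genes by Benjamini-Hochberg at 0.05. Fold changes understate low genes. Replicate libraries of a group differed by 2.63 (diquat) and 2.62 (control) times counting error in mean chi-square per gene. Test scripts were tested on simulated data. Alternatives were pseudocounts, filters, scalings, a block for the replicate number, omission of each library, and count tests on the recovered reads, in which edgeR 4.0.16 called 8829 genes and DESeq2 1.42.0 called 7243. In each role of the sterol list, the text could name up to 4 genes with the lowest p whose mean was 50 or more. Patterns for the list that also matched unrelated words (protein star, HR38) were narrowed to the intended names. Members and lists were chosen with earlier results of these data known. Figures used matplotlib 3.10.9.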

Additional observations from a re-analysis of the deposited data

How the results depend on the processing

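Over 14 alternatives, the counts of genes higher and lower stayed within 1.5 times their main values for all tested genes, the other NPC2-type copies and the NPC1-type genes. In the list of sterol handling, genes higher with diquat numbered 9 under quantile normalization and 9 in DESeq2, and from 9 to 13 when each library was left out in turn, against 14; the cause was not tested. Fold changes that were not called changed sign for LOC109621239 (-0.098 to 0.031 with each library left out in turn), LOC109429786 (-0.012 to 0.0025 likewise), LOC134290743 (-0.56 to 0.012 likewise) and LOC109425930 (-0.0030 under quantile normalization). Sterol carrier protein 2 (LOC109429786) was called lower under quantile normalization only (log2 fold change -0.20), and LOC109411508, a P450 of the Drosophila type phantom, likewise (-0.24). LOC115257481 ran from 1.13 to 1.33 over all alternatives. Some of the 14 could not move a fold change and are no check of it. The median-ratio factor was the same in all 4 libraries (1.006), so that scaling could hardly change values or calls. The filters and the replicate block leave a fold change as it is by design. The replicate number as a block gave 9056 called genes, against 8772, and changed no call of a tested gene named here. Over genes, the deviations of same-numbered libraries had a correlation of 0.01. Counting error can hide a shared deviation, so this value does not settle whether the numbers are a pairing. Leaving out a diquat library leaves 1 in its group, which is then assumed to vary like the controls, and the reverse. Depth limits LOC134287966 and LOC115257619, with at most 21 and 4 reads.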

Other observations

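Genes that lie in or beside the runs of NPC2-type copies also differed between the groups; those given here were chosen after their values were seen. Between LOC134285836 and LOC134287966, LOC134287961 had 1531 and 1535 normalized counts with diquat, against 138.7 and 175.3 in controls, a log2 fold change of 3.29 and so larger in size than that of any tested NPC2-type copy. A pseudogene next to LOC109420427, LOC109402309, had 603.8 and 514.6 normalized counts with diquat, against 122.0 and 113.7 in controls. Between LOC134287970 and LOC109406196, the uncharacterized LOC109406203 had 38125 and 37108 with diquat, against 82787 and 80736 in controls, and its neighbour LOC109406193 had 197680 and 194287 with diquat, against 245717 and 238401 in controls. The files give no product name for these genes beyond uncharacterized protein or pseudogene.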
